A study of Mus musculus with 2 samples.

Results

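Pou5f1 (whose protein is also called Oct4), Sox2 and Nanog are the 3 core transcription factors of pluripotency, and their transcripts were followed here over single cells. The 3 genes were taken by name from the 32285 gene rows of the deposited count tables. The cells were E14 mouse embryonic stem cells (mESCs) of 129/Ola background, an established line, grown on gelatin in serum with leukaemia inhibitory factor. Cells of the library named control received a control siRNA and cells of the library named sonKD an siRNA against Son, both with Lipofectamine 2000, and both were harvested 24 hours later, frozen, thawed and sorted for exclusion of 7-AAD before 10x Genomics 3' barcoding. Each group held 1 library, so no test over samples was possible, no p-value is given, and knockdown and library cannot be told apart as sources of a difference. Nothing in the labels names separate cultures, and all cells come from 1 line.

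The protein of Pou5f1 binds DNA through a POU domain and that of Sox2 through an HMG box. They bind side by side at paired octamer and SOX sites in enhancers and promoters of stem cell genes, their own genes and Nanog among them. Nanog encodes a homeodomain protein. It supports self-renewal, keeps cells from turning into primitive endoderm, and is known for uneven expression between single mESCs in serum. Loss of Pou5f1 in such cells leads towards trophoblast. Son, the siRNA target, encodes a nuclear speckle protein that takes part in splicing.

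The start regions of Nanog and Sox2 are shown because the paired site described above can be read in one of them. Both are RefSeq windows on GRCm38.p6, forward strand, from 250 bases before to 50 bases after a start of the gene. Capitals mark the octamer core TTTGCAT and the SOX core ACAATG, each searched on both strands.

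Nanog, chr6:122707239-122707538: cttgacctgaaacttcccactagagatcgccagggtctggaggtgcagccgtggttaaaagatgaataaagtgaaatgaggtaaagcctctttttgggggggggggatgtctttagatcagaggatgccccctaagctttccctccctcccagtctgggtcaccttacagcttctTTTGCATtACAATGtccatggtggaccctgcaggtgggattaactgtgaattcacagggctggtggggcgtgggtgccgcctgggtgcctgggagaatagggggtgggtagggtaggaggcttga

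Sox2, chr3:34649745-34650044: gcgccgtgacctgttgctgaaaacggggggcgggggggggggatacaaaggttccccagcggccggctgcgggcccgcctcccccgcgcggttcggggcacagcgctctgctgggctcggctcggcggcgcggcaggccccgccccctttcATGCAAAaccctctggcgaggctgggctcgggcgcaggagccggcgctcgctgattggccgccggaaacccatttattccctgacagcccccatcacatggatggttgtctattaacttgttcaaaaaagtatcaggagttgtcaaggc

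The Nanog window held both cores with 1 base between them, from 75 to 62 bases before that start. Of 32851 windows of the same length, 4.63% held the octamer core, 12.6% the SOX core and 2 the joined pair, and those 2 windows are alternative starts of Nanog that share the same site. The Sox2 window held an octamer core, read on the opposite strand, and no SOX core. Pou5f1 had windows at 2 starts, which held no octamer core, and 1 of them held a SOX core. A match describes the letters in this window and no more.

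Cells were barcodes with at least 2500 UMIs (unique molecular identifiers, each marking 1 captured molecule), 1000 genes or more and no more than 10% of UMIs from mitochondrial genes. This left 4978 control cells with 40902904 UMIs and 2731 sonKD cells with 32032551 UMIs, at a median of 7737.5 and 11612 UMIs per cell. The libraries shared 2 cell barcodes. Levels are given as CPM, the UMIs of a gene per 1000000 UMIs of all cells in a library. Control cells had Son at 169 CPM and sonKD cells at 106 CPM, or 62.7% of control. Zfp42, Esrrb, Dppa5a, Tdgf1, Utf1, Dppa4 and Lin28a, stem cell markers apart from the members, were all found. Without equalizing depth, a Zfp42 UMI was in 95.1% of control and 97.0% of sonKD cells. The shares ran from Lin28a, in 25.6% and 33.4%, to Dppa5a, in 100% of both. As sonKD cells were deeper, these shares cannot be compared between the libraries. Of other cell types, the fibroblast list summed to 4.84 and 5.12 CPM, with 3 and 4 of its 8 genes at 0. The mesoderm list summed to 2.20 and 2.15 CPM, and the blood list to 16.4 and 13.8 CPM, nearly all of it Cd68, with 5 and 2 of its 6 genes at 0. Other lists summed higher, with neuroectoderm at 133 and 116 CPM, primitive endoderm at 78.5 and 63.8 CPM and trophectoderm at 71.5 and 94.2 CPM.

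Pou5f1 (ENSMUSG00000024406; GRCm38 chromosome 17, 35506018 to 35510772, 5 exons in its longest transcript) had 45164 UMIs in control, or 1104 CPM (95% interval 1094 to 1114), and 29347 UMIs in sonKD, or 916 CPM (906 to 927). Intervals here and below are exact and cover counting error only. The log2 ratio of sonKD over control was -0.27 (-0.29 to -0.25), or 83.0% of control, and the CPM intervals of the libraries did not overlap. Of the last 500 bases of its transcript, 11.3% of the 31-base words also occur in 3 other annotated genes, so some of its reads may have been assigned elsewhere or dropped. An antisense gene, Gm19553, lies within Pou5f1 and had 17 and 21 UMIs.

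Nanog (ENSMUSG00000012396; chromosome 6, 122707489 to 122714633, 4 exons) had 6950 UMIs in control, or 170 CPM (166 to 174), and 4899 UMIs in sonKD, or 153 CPM (149 to 157). Its log2 ratio was -0.15 (-0.20 to -0.10), and here too the intervals did not overlap. Sox2 (ENSMUSG00000074637; chromosome 3, 34650405 to 34652461, 1 exon) had 14396 UMIs in control, or 352 CPM (346 to 358), and 10764 UMIs in sonKD, or 336 CPM (330 to 342). Its log2 ratio was -0.07 (-0.10 to -0.03), with CPM intervals that did not overlap, but the sign turned under other scalings, to 0.023 with TMM factors. Sox2 lies inside Sox2ot, a long noncoding RNA gene on the same strand, which was at 20.2 and 21.4 CPM. The ends of the Sox2 and Nanog transcripts shared no 31-base word with another gene.

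These differences were read against the 8063 genes that averaged 10 CPM or more over the libraries, whose median log2 ratio was -0.12, with 5th and 95th percentiles of -0.40 and 0.25. At least 1.2-fold lower in sonKD were 17.6% of them, and at least 1.2-fold higher were 4.65%. Of the 3 factors, Pou5f1 was past 1.2-fold, narrowly, and Nanog and Sox2 were not. Pou5f1 lay at the 16.6th percentile of all ratios, Nanog at the 40.7th and Sox2 at the 61.8th, so Nanog and Sox2 lay close to the typical gene. The split of calls depended on the scaling. By CPM 79.1% of the genes past 1.2-fold were lower, against 48.9% with TMM factors, where the median of all genes was -0.03 and Pou5f1 was at -0.18, short of 1.2-fold.

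Because sonKD cells were deeper, the ratio was also taken within bands of UMIs per cell. The median of all genes was itself 0.05, -0.16, -0.18 and -0.0043 from the shallowest band to the deepest, and each ratio is to be read beside it. Pou5f1 was lower in sonKD in each of the 4 bands, by -0.65 (-0.80 to -0.51) at 2500 to 5000 UMIs, -0.28 (-0.32 to -0.23) at 5000 to 10000, -0.24 (-0.27 to -0.20) at 10000 to 20000 and -0.33 (-0.43 to -0.23) above. The shallowest band, with 514 control and 172 sonKD cells, stood apart, since sonKD was at 710 CPM there, against 916, 920 and 933 CPM in the deeper bands. Control stayed between 1084 and 1172 CPM in all 4. At 10000 to 20000 UMIs, which held 1770 of the 2731 sonKD cells, Pou5f1 at -0.24 was close to the median gene at -0.18. For Nanog the ratio was 0.11 (-0.24 to 0.45), -0.19 (-0.30 to -0.08), -0.23 (-0.31 to -0.15) and 0.06 (-0.20 to 0.33), values that lay near the median gene of each band and shared its sign in the first 3. For Sox2 the intervals of all 4 bands included 0.

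The spread between cells was measured after each cell had been thinned at random to 2500 UMIs, which left no cell out. A control cell then held a mean of 2.76 Pou5f1 UMIs (SD 1.75 over cells; median 3, 5th to 95th percentile 0 to 6, highest 11), against 2.23 in sonKD (SD 1.57; median 2, 0 to 5, highest 9). For Sox2 the means were 0.885 and 0.831, with a median of 1 and a 95th percentile of 3 in both libraries. For Nanog they were 0.418 and 0.372, with a median of 0 and a 95th percentile of 2 in both. The distributions of both libraries overlapped over nearly their whole range for each gene.

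**Figure D1:**
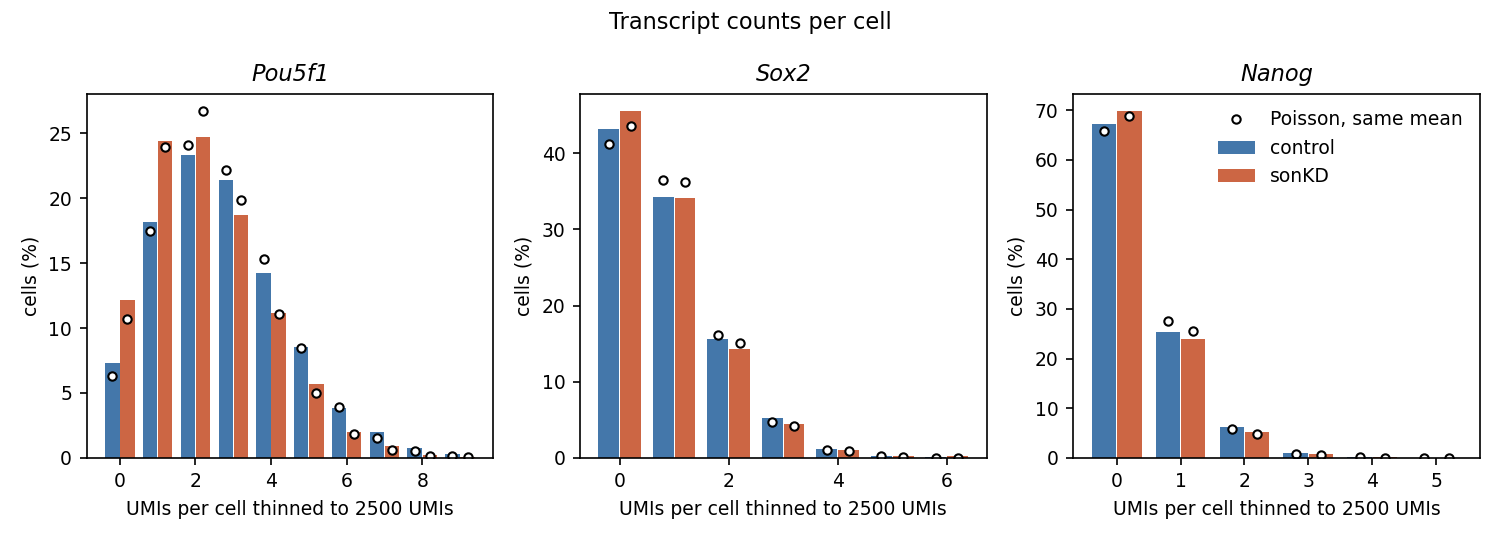
Share of cells (y axis, %) by number of UMIs per cell thinned to 2500 UMIs (x axis) for each gene, with control in blue and sonKD in orange. Open circles give a Poisson law of the same mean. The bars lie close to the circles, with a slight excess of cells at 0, and the Pou5f1 bars of sonKD lie further to the left.

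A Pou5f1 UMI was found in 92.7% of the control cells (interval 92.0 to 93.4) and in 87.8% of those of sonKD (86.6 to 89.0). Sox2 was found in 56.8% (55.4 to 58.2) and 54.4% (52.5 to 56.3), and Nanog in 32.8% (31.5 to 34.1) and 30.1% (28.4 to 31.9). The intervals of the libraries did not overlap for Pou5f1 and overlapped for the other genes. Without thinning the shares were 99.4% and 99.1% for Pou5f1, 88.1% and 92.0% for Sox2, and 68.2% and 73.4% for Nanog, so for Sox2 and Nanog the order of the libraries turned with their depth.

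A cell without a UMI was mostly what counting alone would give at this depth. Nanog was at 0 in 67.2% of control cells, where a Poisson law of the same mean gives 65.8%, and in 69.9% of sonKD cells against 68.9%. Sox2 was at 0 in 43.2% against 41.3% and in 45.6% against 43.6%, and Pou5f1 in 7.29% against 6.34% and in 12.2% against 10.7%. No separate group of Nanog-negative cells can thus be read from the zeros at this depth, nor can one be shown to be absent.

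The Fano factor, the variance over the mean, is 1 for pure counting. It was 1.11 and 1.10 for Pou5f1, 1.12 and 1.15 for Sox2 and 1.10 and 1.08 for Nanog in control and sonKD, beside a median of 1.06 in both libraries over the 1505 genes that averaged 0.25 UMI or more per thinned cell. Variation beyond counting, given as the squared coefficient of variation less its Poisson part, was 0.0412 and 0.0450 for Pou5f1, 0.136 and 0.179 for Sox2 and 0.248 and 0.202 for Nanog. The median gene had 0.0850 and 0.0971. By this measure Nanog ranked 196th and 317th of the 1505 genes, Sox2 438th and 395th and Pou5f1 1160th and 1142nd. This order is the reverse of that of their mean UMIs. The ranks were not set against genes of a like level, so none of the factors is read as unusually even or uneven. By Fano factor, which grows with the level, the order was another one, with Pou5f1 365th and 450th, Sox2 336th and 288th and Nanog 400th and 630th. The values also moved with the random draw of the thinning. A second draw gave 0.0294 and 0.0371 for Pou5f1, 0.163 and 0.140 for Sox2 and 0.268 and 0.377 for Nanog. The order of the libraries thus turned for Sox2 and Nanog, and no difference in spread between libraries can be read for these genes. For Pou5f1 sonKD was higher in both draws by this measure, but lower by Fano factor in the first. Both Pou5f1 values fell in the second draw, so no difference is concluded for it either. With at most 5% mitochondrial UMIs the Sox2 value in sonKD was 0.0325. Pou5f1 stayed below Sox2 and Nanog in both draws, but not below Sox2 in sonKD at that limit, where it had 0.0508.

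Correlations between the factors over thinned cells were close to 0, where counting noise alone keeps them low. Pearson's r between Pou5f1 and Sox2 was 0.0016 in control and 0.029 in sonKD, and between Pou5f1 and Nanog -0.0068 and 0.010. For Sox2 and Nanog it was 0.065 and 0.040, and this value was not stable. In control it was 0.053 in a second draw, 0.019 with at most 5% mitochondrial UMIs and 0.024 without the barcodes of most UMIs, and in sonKD 0.021, 0.014 and 0.046. All values describe 4978 and 2731 cells that share a library each, carry no p-value, and in counts this sparse a weak r is no finding. Under Poisson counting, fully shared variation could give at most an r of 0.100 and 0.0952 for Sox2 and Nanog, 0.105 and 0.109 for Pou5f1 and Sox2, and 0.0978 and 0.0799 for Pou5f1 and Nanog. After correction for that noise, r for Sox2 and Nanog was 0.65 and 0.42, and over 5 other choices of cells, depth or draw it ran from 0.19 to 0.48 in control and from 0.18 to 0.37 in sonKD. For Pou5f1 and Sox2 the corrected r was 0.015 and 0.27 and ran from -0.26 to 0.046 and from -0.16 to 0.88, and for Pou5f1 and Nanog it was -0.069 and 0.13 and ran from -0.13 to 0.026 and from -0.14 to 0.41. These data thus leave the correlation of Pou5f1 with the other factors undetermined at this depth. For Sox2 and Nanog it was positive in each choice, with a size that varied. The choices are subsets or new draws of the same cells, so their shared sign is no further evidence.

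Set beside the other 1504 genes, the pairs differed in rank. Among genes ordered by r with Sox2, Nanog was 3rd in control and 56th in sonKD. The rank was 8th and 260th in a second draw, 184th and 403rd with at most 5% mitochondrial UMIs and 143rd and 52nd without the barcodes of most UMIs, so nothing rests on it. Among those ordered by r with Pou5f1, Sox2 was 806th and 302nd and Nanog 935th and 633rd, near the middle in control. The 3 genes were detected together in 17.9% of control cells after thinning (interval 16.9 to 19) and in 14.9% of those of sonKD (13.6 to 16.3), and the products of their shares were 17.3% and 14.4%. All 16 patterns of detection over both libraries, from all 3 genes to none, held the product of the single shares within their interval. The products come from the same cells, and counting noise keeps any r low, so this is no evidence of independence.

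Other genes were ordered by the lower of their r in both libraries, in the same single draw, so their order is a description of that draw. With Sox2 the highest were Tdgf1, a co-receptor of Nodal, at 0.068 and 0.068, Chchd10, Zfp42, the marker also called Rex1, at 0.059 and 0.107, Tdh, a threonine dehydrogenase of mESCs, and Klf4, a factor of the naive state, at 0.052 and 0.094. With Nanog they were Enah, an actin regulator, at 0.062 and 0.051, Tbx3, a naive factor, at 0.050 and 0.060, Zfp42 at 0.048 and 0.066, Mki67, a mark of cycling cells, and Gli2. Mdm2, the ligase of p53, was among the 3 lowest for both, at -0.048 and -0.041 with Sox2 and -0.072 and -0.059 with Nanog. With Pou5f1 the highest was Dppa5a, an RNA-binding protein of early embryonic cells, at 0.118 and 0.108, followed by Atp5g1, H2afz, Rps3a1 and Hspb1. Its lowest were the nuclear RNA Malat1 at -0.110 and -0.120, mt-Nd1 at -0.094 and -0.081, and Gm42418.

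**Figure D2:**
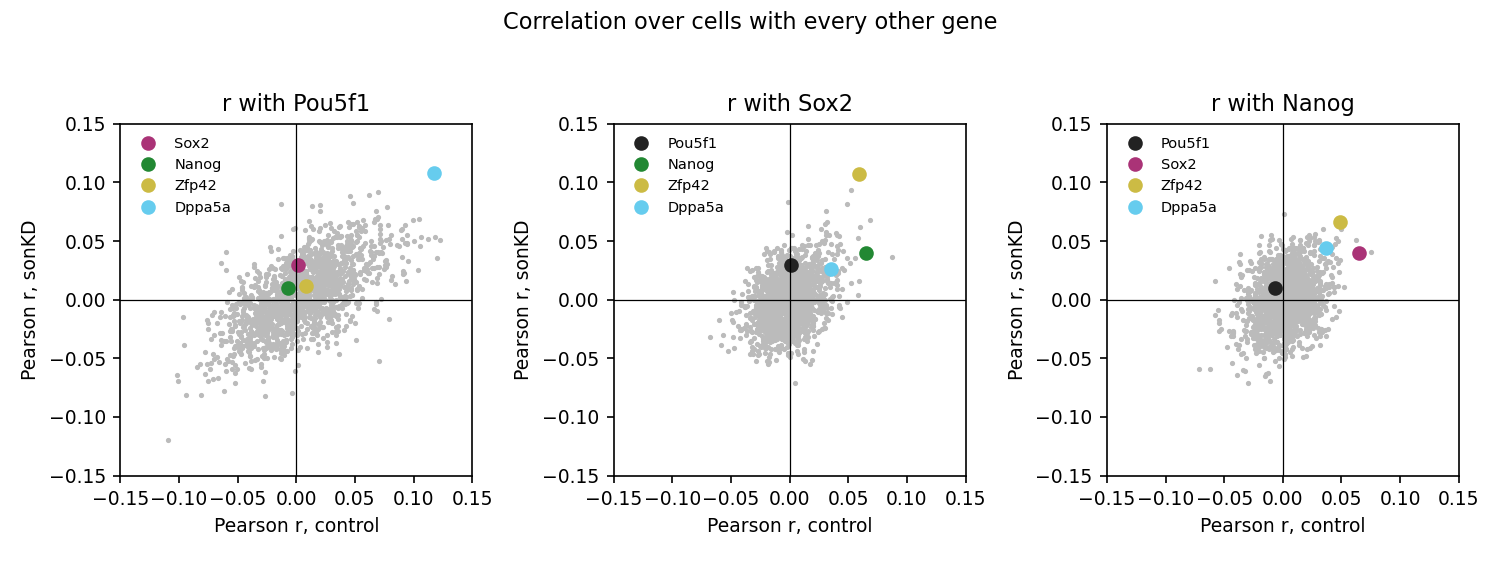
Pearson's r over thinned cells of every other gene with Pou5f1, Sox2 and Nanog, in control (x axis) and sonKD (y axis), 1 grey point per gene. Colours mark the other factors, Zfp42 and Dppa5a. Nanog and Sox2 lie to the upper right for each other, with r of 0.065 and 0.040, and both lie near 0 for Pou5f1.

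Sums over gene lists were set beside the factors in the same way, and all values were weak. The summed UMIs of 15 naive factors had an r of 0.091 and 0.131 with Sox2, 0.077 and 0.081 with Nanog and 0.00030 and 0.022 with Pou5f1 in control and sonKD. The 14 reported targets of the Oct4-Sox2 pair, in which Dppa5a gives most of the UMIs, had 0.089 and 0.122 with Pou5f1, 0.068 and 0.051 with Sox2 and 0.068 and 0.055 with Nanog. For formative and primed factors all values lay between -0.021 and 0.023. With the S phase list they lay between -0.022 and 0.046, and with the G2/M list between -0.039 and 0.041.

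Cells were then ranged by their Nanog count, which marks ranges and not cell types. In control 3345 cells had 0 Nanog UMIs, 1263 had 1 and 370 had at least 2. Mean Sox2 was 0.853 (0.822 to 0.885), 0.907 (0.856 to 0.961) and 1.10 (0.996 to 1.21) in these, and the sum of naive factors 6.26, 6.64 and 6.95 UMIs. Mean Pou5f1 had no such order, at 2.78, 2.67 and 2.85. In sonKD, with 1909, 656 and 166 cells, Sox2 was at 0.812 (0.773 to 0.854), 0.852 (0.783 to 0.926) and 0.964 (0.820 to 1.13), and the naive sum at 5.89, 6.28 and 6.84. The Sox2 intervals of the lowest and highest range were apart in control and overlapped in sonKD. This is the relation already given as r, in the same draw, and no further evidence for it.

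Measures of the make-up of the cell's RNA gave values further from 0 for Pou5f1 than for the other factors in control. Its r was 0.172 and 0.084 with the ribosomal protein sum, -0.112 and -0.080 with the mitochondrial share and -0.195 and -0.111 with the number of genes found in the thinned cell. For Sox2 these were -0.028 and -0.020, -0.0018 and 0.011, and 0.048 and 0.029, and for Nanog -0.056 and -0.061, -0.058 and 0.0026, and 0.069 and 0.057. With depth before thinning, on a log scale, r was -0.018 and 0.080 for Pou5f1. The part of these measures in the Pou5f1 difference was not tested.

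By mitochondrial share, Pou5f1 in control was at 1184 CPM in cells up to 3%, 1097 CPM at 3 to 5%, 985 CPM at 5 to 10% and 682 CPM in barcodes above 10%, which are left out elsewhere. In sonKD the same bands gave 958, 928, 851 and 623 CPM. The level was thus lower in each higher band in both libraries, and lower in sonKD than in control in each of the bands. The log2 ratios were -0.31, -0.24 and -0.21 in the cells. Above 10% the intervals of the libraries overlapped, at 646 to 719 CPM in control and 598 to 649 CPM in sonKD. The median of all genes in these bands of cells was -0.08, -0.13 and -0.15, so Pou5f1 lay nearest to it at 5 to 10%. Nanog went from 179 to 171, 149 and 144 CPM in control and from 166 to 151, 150 and 118 CPM in sonKD. Sox2 stayed between 322 and 356 CPM in control and between 332 and 347 CPM in sonKD.

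**Figure D3:**
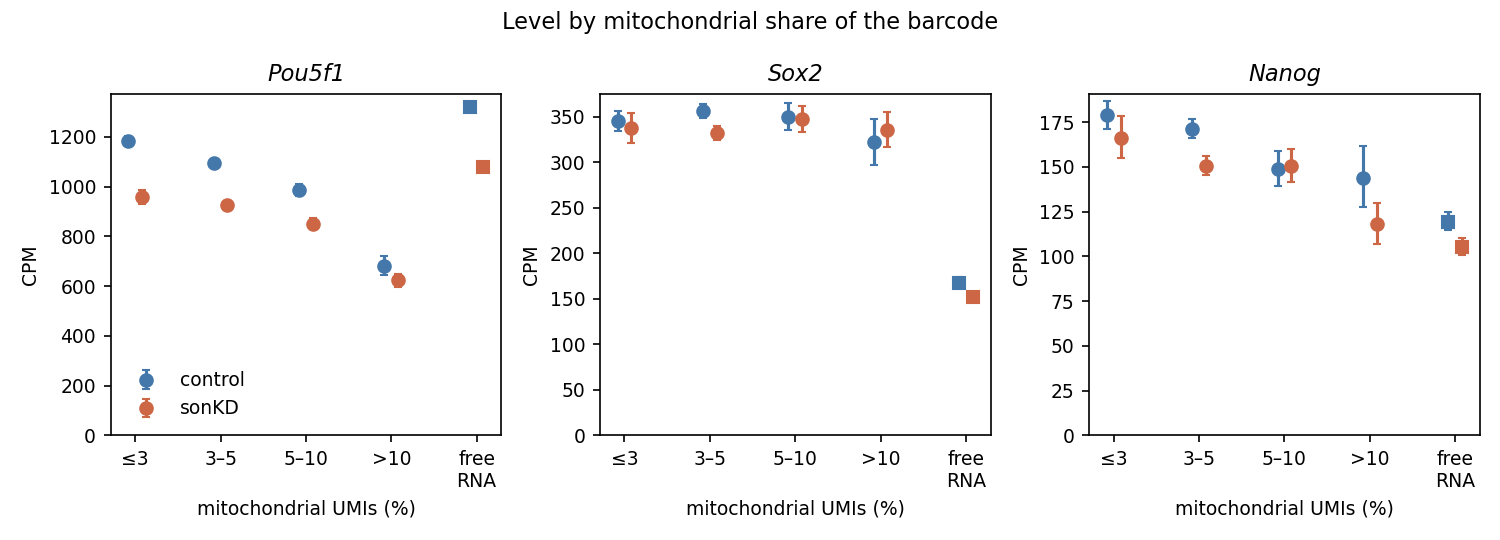
CPM (y axis, from 0) of each gene by mitochondrial share of the barcode (x axis, circles) and in near-empty droplets (squares), with 95% Poisson intervals. Control is blue and sonKD orange. Pou5f1 is lower in each higher band and high again in droplets, while Sox2 stays level over the bands and is low in droplets.

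Free RNA was taken from droplets of 100 to 500 UMIs, 59886 in control and 62449 in sonKD. Pou5f1 made up 1321 CPM of it in the control library and 1078 CPM in that of sonKD, 1.2 and 1.18 times its level in cells. Sox2 was at 168 and 152 CPM there, 0.476 and 0.451 of its level in cells, and Nanog at 119 and 105 CPM, 0.703 and 0.689. A droplet of this kind, at a median of 305 and 296 UMIs, held a Pou5f1 UMI in 33.0% and 27.4% of cases, a Sox2 UMI in 5.01% and 4.41% and a Nanog UMI in 3.58% and 3.10%. These shares are at a lower depth than that of the thinned cells and cannot be set against theirs, and no cell type without these genes was at hand as a background. Pou5f1 was lower in sonKD in the free RNA as well as in the cells, and the part of free RNA in the cell values was not tested.

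A few cells carried markers of the lineage that Nanog is known to hold back. At least 20 UMIs of the primitive endoderm list, a limit set after the values were seen, were found in 3 control cells (60, 75 and 149 UMIs) and 1 sonKD cell (77), and the next highest cells had 9 and 7. These 4 cells had Gata4, Gata6 and Dab2 UMIs. Of stem cell markers, Esrrb was at 0 in all 4, Zfp42 had 0, 3 and 1 UMIs in the control cells and 3 in the sonKD cell, and Dppa5a had 35, 54, 11 and 47 UMIs. Sox2 and Nanog were at 0 in 3 of the 4, which held 3, 4 and 9 Pou5f1 UMIs, or 631, 364 and 677 CPM. The remaining control cell had 15 Pou5f1, 4 Sox2 and 1 Nanog UMIs. In all 4 cells the Pou5f1 CPM lay below that of the free RNA of the same library, as did the level over all cells of each library. The part of free RNA in these counts was not tested. Without these 4 cells the log2 ratios were -0.27, -0.07 and -0.15 for Pou5f1, Sox2 and Nanog.

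Cells rich in keratins stood lower in all 3 factors. At least 10 UMIs of the trophectoderm list, in which Krt8 and Krt18 gave most UMIs, were found in 10 control and 21 sonKD cells. Cdx2, the defining factor of trophectoderm, had 2 and 7 UMIs in them, and Elf5 had 0 in both. Of the rest of the list, Krt19 had 16 and 26 UMIs, Hand1 2 and 12, and Krt7 1 and 13. Tfap2c had 2 and 9, Gata3 1 and 0, and Eomes 0 and 1. No cell type is assigned to these cells. Pou5f1 was at 492 CPM (362 to 655) in the 10 control cells against 1106 CPM in the others, Sox2 at 126 CPM (64.9 to 220) against 352 CPM, and Nanog at 31.4 CPM (6.48 to 91.8) against 170 CPM. In the 21 sonKD cells Pou5f1 was at 590 CPM (499 to 693) against 919 CPM, Sox2 at 195 CPM (145 to 258) against 337 CPM, and Nanog at 23.9 CPM (8.78 to 52.1) against 154 CPM. The limit of 10 UMIs was set after the values were seen, on counts before thinning. As sonKD cells were deeper, the numbers of such cells cannot be compared between the libraries. Cells of 1 library are not replicates. With 5 to 9 UMIs of that list, 14 control and 31 sonKD cells had Pou5f1 at 1092 and 898 CPM, Sox2 at 338 and 318 CPM and Nanog at 109 and 94.6 CPM, so Pou5f1 and Sox2 lay near the level of the other cells there.

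**Figure D4:**
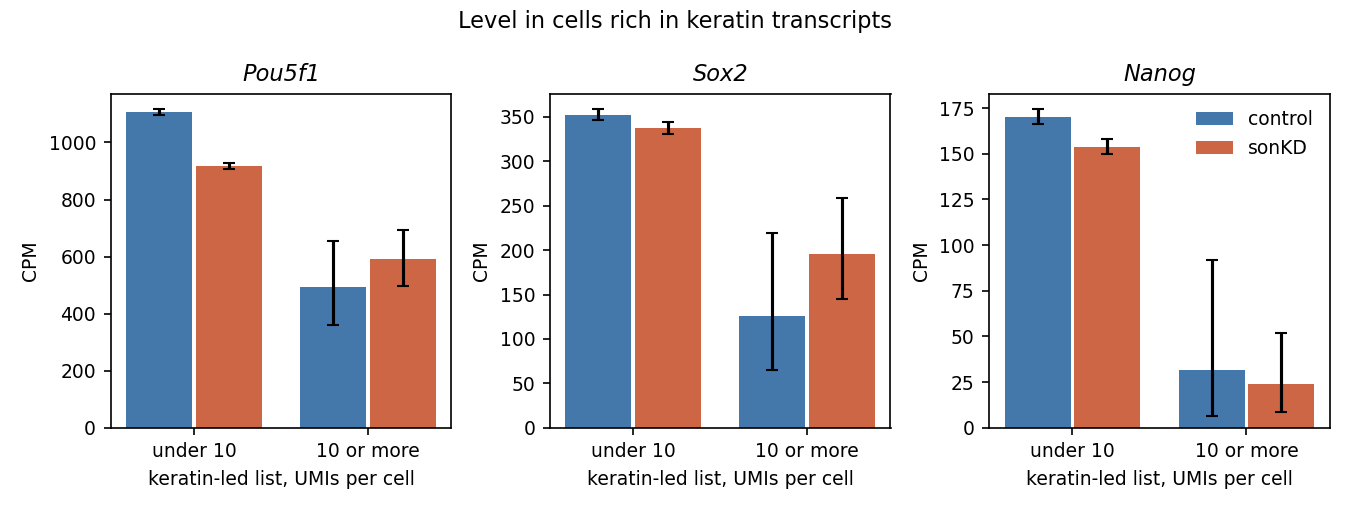
CPM (y axis) of each gene in cells with under 10 and with 10 or more UMIs of the keratin-led trophectoderm list (x axis), control in blue and sonKD in orange, with 95% Poisson intervals that cover counting error only. All 3 genes are lower in the 10 control and 21 sonKD cells on the right of each panel.

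The wider network was described from lists, by counts past 1.2-fold and medians, beside the 17.6% lower and 4.65% higher among all genes. The counts with TMM factors are given beside them. With those factors 609 of all 8063 genes were lower and 637 higher. Of 15 naive factors, 4 were lower and 0 higher, with a median of -0.13, against 0 lower and 1 higher with TMM factors. Prdm14, which guards against differentiation signals, was at -0.35 (13.1 to 10.3 CPM) and Nr0b1 at 0.20 (52.7 to 60.6 CPM), while the most abundant, Zfp42 and Klf2, were at -0.05 and -0.16. Of the 14 reported targets of the Oct4-Sox2 pair, 1 was lower and 1 higher, with a median of -0.14 (TMM 1 lower, 2 higher). Lefty1, an inhibitor of Nodal, was at -0.50 (20.2 to 14.2 CPM), Dppa5a at 0.27 (5027 to 6075 CPM) and Tdgf1 at -0.08.

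Of 12 formative and primed factors, 8 reached 10 CPM. Of these 2 were lower and 0 higher, with a median of -0.17 (TMM 0 lower, 0 higher), and Pou3f1, a POU factor of the formative state, was at -0.31 and Tcf15 at 0.04. Of 19 S phase genes at 10 CPM, 2 were lower and 0 higher, with a median of -0.18 (TMM 1 lower, 0 higher). Uhrf1, a partner of the maintenance DNA methyltransferase, was at -0.59 and Ung, a uracil glycosylase, at 0.14, with the abundant Hells and Mcm3 at 0.08 and -0.19. Of 20 G2/M genes 3 were lower and 0 higher, with a median of -0.16 (TMM 2 lower, 1 higher). Plk1, a mitotic kinase, was at -0.42 and Cdk1, another one, at 0.25, with the abundant Top2a and Cenpf at -0.34 and -0.14.

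**Figure D5:**
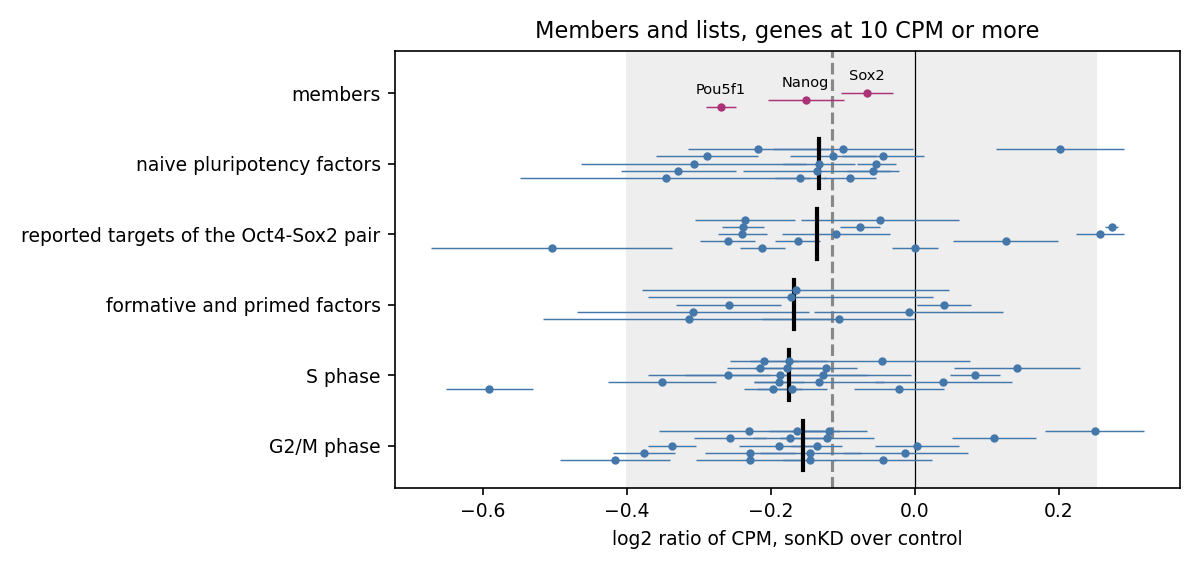
Log2 ratio of CPM, sonKD over control (x axis), for the 3 factors and each listed gene at 10 CPM or more, with exact counting intervals. Black bars are list medians, the dashed line is the median of all 8063 genes at -0.12, and the grey band runs from their 5th to 95th percentile.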

How the data were processed

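The authors deposited raw UMI counts per gene and barcode, made with Cell Ranger 7.1.0 per the file headers. The submitters' processing notes name mm10. Neither the annotation release nor how intronic reads were counted is given in the sources used here. Of 32285 gene identifiers, 32158 occur in GENCODE M21 on GRCm38, which gave positions. The files list all barcodes.

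Groups came from the sample titles. Limits on cells were 2500 UMIs, 1000 genes and a mitochondrial share of 10%. No doublets were removed, and an alternative left out the barcodes with the most UMIs at 0.8% per 1000 cells (198 control, 60 sonKD). Counts summed over cells gave CPM, ratios carry exact conditional binomial intervals, shares Clopper-Pearson and counts Poisson intervals at 95%. A count under 3 was set to 3 in ratios. Each cell was thinned without replacement to 2500 UMIs (numpy 2.4.6, scipy 1.17.1). TMM factors came from edgeR 4.0.16. The procedure was tested on simulated data. For correlation these held a single pair of genes, both more abundant than Nanog, so the corrected r was not tested at the level of Nanog.

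Named genes are the 3 factors, Son, genes overlapping them, per factor the 5 highest and 3 lowest r, and per list the 2 ends and the 2 most abundant genes. Other genes were chosen after their values were seen. The members and lists were chosen with earlier results of these data known.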

Additional observations from a re-analysis of the deposited data

How the results depend on the processing

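No paired analysis was possible because each group held 1 sample. Bands of depth, the omission of cells rich in endoderm markers or keratins and the TMM counts of lists were chosen after the data were seen, as were the limits that mark a value as moved, 0.02 for r and 0.05 for a Fano factor. Of 183 alternative values for 26 results, 130 stayed within their limits, 47 moved and 6 reversed. Both r and the Fano excess over 1 are themselves small, so staying within these limits does not show that they are stable.

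The log2 ratio of Pou5f1 was -0.18 with TMM factors, -0.18 with median-of-ratios factors, -0.20 without mitochondrial and ribosomal protein genes and -0.31 from mean thinned UMIs. Nanog was at -0.062, -0.067 and -0.078 under the first 3 of these, and Sox2 reversed to 0.023, 0.018 and 0.0067. Each of these first 3 scalings shifts every gene by 1 constant, by construction, which mean thinned UMIs do not. By depth, from shallow to deep, Pou5f1 was at -0.65, -0.24 (10000 to 20000 UMIs) and -0.33, Sox2 at -0.13 and -0.12 in the outer bands, and Nanog at 0.11, -0.23 and 0.059, where the cause was not tested.

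Thinned to 4000 UMIs, with 268 control and 109 sonKD cells left out, Pou5f1 was found in 98.4% and 95.8%, Sox2 in 72.8% and 69.3% and Nanog in 48.0% and 42.6%. The Fano factor of Sox2 was then 1.21 and 1.27, and in sonKD that of Pou5f1 1.17 and of Nanog 1.16. A Fano excess grows with the depth kept, by construction. Without thinning the shares were 99.4% and 99.1%, 88.1% and 92.0%, and 68.2% and 73.4%. At most 5% mitochondrial UMIs gave Nanog in 34.5% of control cells and a Fano factor of 1.03 for Sox2 in sonKD. Without the barcodes of most UMIs it was 1.18 for Sox2 in control and 1.14 for Nanog in sonKD, and a second draw gave 1.15 for the latter.

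For Sox2 and Nanog r in control was 0.019 at 5% mitochondrial UMIs, 0.024 without the barcodes of most UMIs and 0.105 on log counts without thinning, and in sonKD 0.014 at 5% and 0.112 on log counts. For Pou5f1 and Sox2 it was -0.021 at 5% and 0.031 on log counts in control, and in sonKD it reversed to -0.019 from 5000 UMIs, with 0.0075 without the barcodes of most UMIs and 0.053 on log counts. For Pou5f1 and Nanog it was 0.039 on log counts in control, and in sonKD -0.011 at 5%, 0.058 at 4000 UMIs and 0.095 on log counts. The cause was not tested.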

Other observations

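Of 13 other SOX and POU genes, 3 reached 10 CPM, with Pou2f1, a POU factor found in most tissues, at 112 CPM (control) and 92.7 CPM (sonKD), Sox4 at 20.1 and 16.2 CPM and Pou3f1 at 13 and 10.5 CPM. Their log2 ratios were -0.27, -0.31 and -0.31, all past 1.2-fold, beside 17.6% of all genes lower. With TMM factors 0 of the 3 were past it, beside 609 of all 8063 genes lower.

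Of 11 primitive endoderm genes, 3 reached 10 CPM, and all 3 are basement membrane genes. Lama1 was at -0.33, Lamb1 at -0.30 and Col4a1 at -0.35, all past 1.2-fold, beside 17.6% of all genes lower. With TMM factors 0 of these 3 were past it, beside 609 of all 8063 genes lower. Of the trophectoderm list Krt18 was at 0.74 and Krt8 at 0.21. Without the 10 control and 21 sonKD cells rich in keratins, an omission chosen after the data were seen, Krt18 was at 0.22 and Krt8 at -0.11. Those cells were picked by their UMIs of these genes, and more of them were in sonKD. Lower ratios without them were thus built in, and nothing is concluded from them. Among neuroectoderm genes Ncam1 had -0.34, Tubb3 at -0.05 and Zfp521 at -0.04.

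Barcodes above 10% mitochondrial UMIs made up 11.2% of control barcodes past the other limits (10.3 to 12) and 27.9% of those of sonKD (26.5 to 29.3). In them Sox2 had 322 CPM (control) and 336 CPM (sonKD), near its level in cells.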
